A study of Mus musculus with 10 samples.

Results

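The comparison concerned the response to a mild heat pretreatment in mouse embryonic fibroblasts of a line labelled hsp70 (-/-) or knockout. It used 6 of the 10 arrays of the study, chosen by their labels: 3 arrays of preshocked cells (numbered 5, 11 and 13) and 3 arrays of unheated cells (numbered 6, 12 and 14). Both groups carry the same knockout label and differed in heat alone, per the labels. Preshocked cells had grown for 20 h, were heated at 43 °C for 30 min in a water bath and were harvested 3 h later, and unheated cells were harvested at 23 h. Each array holds RNA pooled from 144 wells of a 96-well format. The labels give neither an age, a strain nor whether the line is a single clone, and they do not name the deleted gene beyond hsp70. The other 4 arrays, from a line labelled (+/+) rescue, entered the model of the spread and one comparison. The labels do not say that the arrays of a group came from separate cultures, so the spread behind each p-value may be technical. The title numbers adjoin in pairs (5 with 6, 11 with 12, 13 with 14), and the arrays of a pair deviated together from their group means.

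The heat shock response is a conserved program in which heat-damaged proteins draw chaperones away from the heat shock factor HSF1, which then activates chaperone genes through heat shock elements in their promoters. Its products are the inducible Hsp70 proteins, their J-domain cochaperones and exchange factors, Hsp110, Hsp90 and the small heat shock proteins. Cells that have gone through a mild shock withstand a later severe one, a state called thermotolerance, which is what the title of the study names. Heat also activates kinase cascades that switch on immediate early genes of the AP-1 and EGR families.

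Values below are quantile-normalised array intensities on a linear scale, which have no absolute unit. They are always given for the preshocked arrays in the order 5, 11, 13 and for the unheated arrays in the order 6, 12, 14. Changes are log2 differences, preshocked minus unheated, ± the standard error of the limma model (n = 3 arrays a group), and a gene was called at a Benjamini-Hochberg adjusted p under 0.05. Of 10916 genes tested, 193 were called (1.77%): 103 were higher (0.944%) and 90 lower (0.824%). With the pairs as a block the model called 999 (9.15%), of which 364 were higher (3.33%) and 635 lower (5.82%), and 190 of the 193 were among them. With the arrays centred on their medians in place of quantile normalisation 28 genes were called, 89.3% of them higher, against 53.4% in the quantile-normalised values and 36.4% with the block. The count was 42 without array 11, 55 without array 12, 76 without array 14, 93 without array 13, 114 without array 6 and 139 without array 5. The median change of all tested genes was -0.04 log2, with 4541 genes above 0 and 6375 below. At an unadjusted p under 0.05 lay 482 higher (4.42%) and 916 lower (8.39%), the shares against which the unadjusted counts of lists below can be read.

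An inducible Hsp70 gene was looked at first, because the knockout label names hsp70 without saying which gene was deleted. Hspa1b, which encodes an inducible Hsp70 chaperone, stood at 30514, 33358 and 23192 in the preshocked arrays and at 154, 457 and 239 in the unheated arrays. Every preshocked array was far above every unheated one. The change was 6.81 ± 0.37 (adjusted p = 0.000249), with 7.63, 6.19 and 6.60 within the 3 pairs. Its 3 probe sets gave 8.48, 7.78 and 6.81 in the fit of all 45037 probe sets, where limma called 27 (0.06%), 23 of them higher (0.0511%) and 4 lower (0.00888%), all 3 of these included. With the pair block that limma fit called 0 probe sets (5596 at an unadjusted p under 0.05), and the smallest value for Hspa1b was an adjusted p of 0.0959. The neighbouring gene Hspa1a had 1 probe set, which read 3.41, 22.0 and 10.3 against 5.34, 13.3 and 4.25. This is below the lowest mean of the genes tested (50.2). An absent transcript and a probe set that does not detect it cannot be told apart here, so no response of Hspa1a is drawn. Whether the 3 probe sets assigned to Hspa1b also read Hspa1a transcripts was not tested, so the rise may not belong to Hspa1b alone. Probe sets that read a part left by the deletion cannot check a knockout label, and the extent of the deletion is not stated in the labels. Since the transcript rose in arrays labelled knockout, the line is called knockout-labelled throughout, and every direction below is drawn in arrays that carry this label.

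The J-domain cochaperones, which hand unfolded proteins to Hsp70 and stimulate its ATPase, had 3 of 16 tested members called, all higher, with a list median of 0.04. Dnajb1, the partner of inducible Hsp70 in the cytosol, went from 2989, 3348 and 4031 without heat to 20885, 20749 and 22495 after it. These preshocked values lay within a narrow range and none came near the unheated ones. Its change was 2.64 ± 0.16 (adjusted p = 0.000469). Dnajb4 stood at 5408, 7333 and 7046 after preshock and at 1477, 1593 and 1649 without it, a change of 2.06 ± 0.15 (adjusted p = 0.000741). Dnaja4 stood at 1492, 1890.0 and 1560.3 against 30.3, 135 and 165. The preshocked Dnaja4 values were alike and the unheated ones spread widely, with array 6 lowest, so that the change of 4.22 ± 0.55 (adjusted p = 0.0111) ranged from 3.24 to 5.62 between the pairs.

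Hsph1, the Hsp110 chaperone that acts as an exchange factor for Hsp70, was the other called member of the 9 tested Hsp70 and Hsp110 genes (list median 0.21). It read 24236, 19987 and 18448 in the preshocked arrays and 4265, 6102 and 6556 in the unheated ones, a change of 1.90 ± 0.20 (adjusted p = 0.00418). Hspa8, the constitutive Hsp70, read 32893, 35757 and 33904 against 29167, 31771 and 32893 on its brightest probe set. These levels overlap and lie near the top of the normalised scale, and the change was 0.13 ± 0.14, not called. Its other probe sets gave 0.48, 0.26 and 1.745 in the fit of all probe sets, none called. The last of them read 665, 1306 and 1249 against 97.5, 561 and 527, without overlap. Hspa2, a member best known from the testis, was called as higher with the pair block alone (0.34 ± 0.22, adjusted p = 0.0473 with the block). Among 10 tested BAG and other exchange factors, Bag3, which links Hsp70 to small heat shock proteins and autophagy, rose from 1072, 1388 and 1638 to 4138, 4161 and 4686. The groups did not overlap, and the change was 1.68 ± 0.17 (adjusted p = 0.00403). Bag4, a related factor, was called as lower only with the block (-0.68 ± 0.19, adjusted p = 0.0414 with it).

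Small heat shock proteins bind unfolding proteins without using ATP. Of 5 tested, 3 were called, all higher, and the list median was 0.86. Hspb1 stood at 25277, 24649 and 27527 after preshock, close together, and at 4574, 7044 and 9734 without it, where the values spread over a wider range. The change was 1.92 ± 0.26 (adjusted p = 0.0119). Hspb8, the partner of Bag3, stood at 4625, 5062 and 5244 against 1957, 1922 and 2269.8 (1.28 ± 0.16, adjusted p = 0.00916), and Cryab, the alpha-B crystallin, at 13897, 12422 and 10974 against 6251, 7255 and 6922 (0.86 ± 0.16, adjusted p = 0.0406). In both genes the groups did not overlap, and 1 of 3 probe sets had the opposite sign.

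Hsp90 and its cochaperones had 0 of 13 tested members called by limma (2 reached an unadjusted p under 0.05, both higher), with 11 of them above 0 and a list median of 0.11. The pair block called 3 as higher: Hsp90aa1, the inducible Hsp90, Ahsa1, which activates its ATPase, and Chordc1, a cochaperone. Hsp90aa1 read 30984, 30109 and 23371 after preshock and 23399, 24299 and 16861 without it. The groups overlap, since array 13 lay below the unheated arrays 6 and 12, yet each preshocked array was above its own partner, by 0.41, 0.31 and 0.47 log2 (adjusted p = 0.436, and 0.0435 with the block). The heat shock factor gene Hsf2 stood at 0.45 ± 0.32, not called, and went down in the pair 11 and 12. The chaperonin TRiC and prefoldin (13 tested), the mitochondrial chaperones and proteases (13) and the ER chaperones with the unfolded protein response (22) had 0 members called by limma each, with medians of 0.02, 0.02 and 0.05. With arrays centred on their medians these became 0.19, 0.18 and 0.16, and all 13 chaperonin and prefoldin genes lay above 0, so no direction is drawn for these lists. At an unadjusted p under 0.05 they had 0, 2 (both lower) and 1 (higher). Hspd1 and Hspe1, the mitochondrial Hsp60 and its cochaperonin, stood at 0.02 ± 0.12 and 0.18 ± 0.16, and Hspa5, the ER Hsp70, at -0.07 ± 0.21. In the block fit 0 of the chaperonin genes were called, Clpx was called as lower among the mitochondrial ones, and 1 gene each way was called among the ER genes, Dnajb9 as higher and Sel1l as lower.

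**Figure D1:**
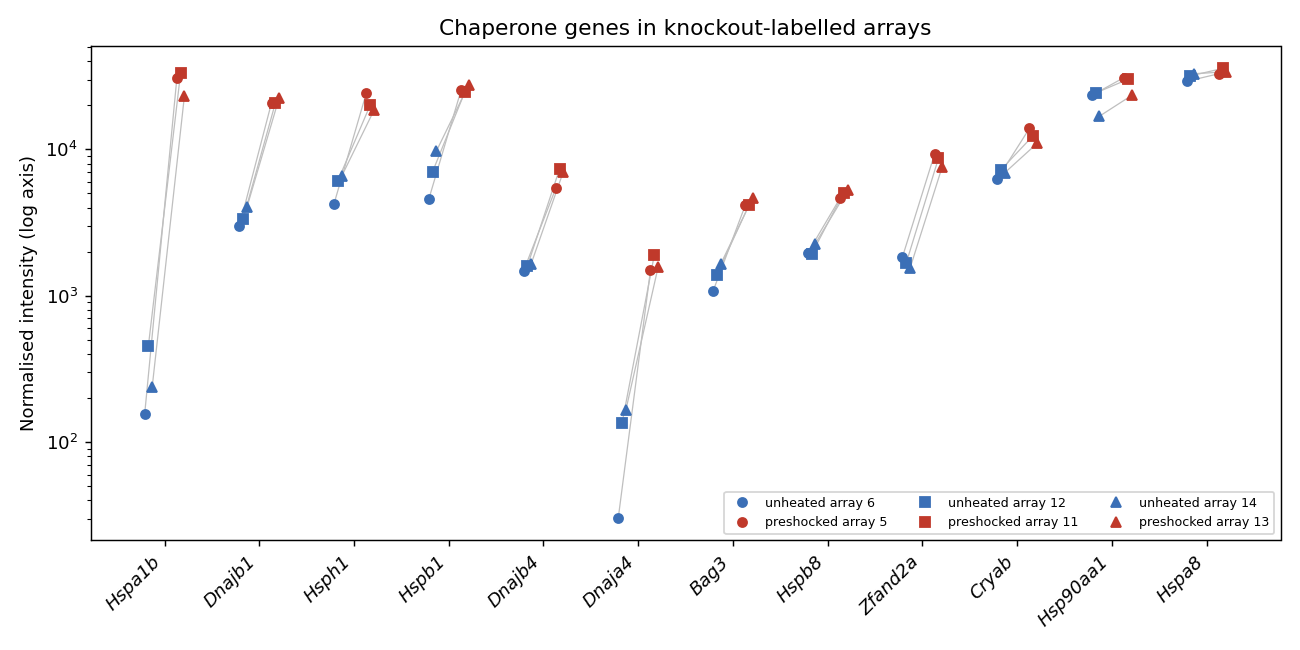
Normalised intensity (log axis, no absolute unit) of 12 chaperone and heat-inducible genes in the 3 preshocked (red) and 3 unheated (blue) knockout-labelled arrays, with grey lines joining arrays of adjoining title number. Hspa1b and Dnaja4 show the widest gaps, Hspb1 converges to similar preshocked values from spread unheated ones, and the brightest probe set of Hspa8 is flat near the top of the scale.

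Ubiquitin and stress zinc finger genes followed with 3 of 18 tested members called, all higher (one of them Hspb8). Zfand2a, an AN1-type zinc finger gene that binds the proteasome, stood at 9334, 8676 and 7610.3 against 1838, 1674 and 1541, a change of 2.34 ± 0.16 (adjusted p = 0.000469). Its 3 pairs gave 2.34, 2.37 and 2.30. Atg12, an autophagy conjugate, rose by 1.17 ± 0.16 (adjusted p = 0.0124). The 31 tested proteasome subunits had 0 called by limma with the block or without it, and 0 at an unadjusted p under 0.05 (median -0.0024, range -0.16 to 0.22). Their median became 0.18, with all 31 above 0, when the arrays were centred on their medians, so no direction is drawn. Among metal response genes 1 of 12 was called, the zinc exporter Slc30a1, at 1000.0, 905 and 827 against 305, 419 and 398 (1.29 ± 0.16, adjusted p = 0.00866). The metallothionein Mt1 stood at -0.01 ± 0.22. Of 23 NRF2 and antioxidant genes 0 were called by limma, with 2 each way at an unadjusted p under 0.05. With the block Hmox1, the heme oxygenase, and Bach1 were called as higher, and Nfe2l2, which encodes NRF2, and Gclc as lower. The other probe set of Nfe2l2 read 2.02 against -0.53, and the mean of both was 0.74. Hmox1 read 2561, 1411 and 952 against 1348, 732 and 346, so that the groups overlap, while each preshocked array was above its own partner (1.11 ± 0.65, adjusted p = 0.609, and 0.0222 with the block).

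Of the heat shock and proteostasis genes above, these calls ended without 1 array, with the adjusted p in brackets: Dnaja4 without array 11 (0.0597), Hspb1 without array 11 or 12 (0.0569 and 0.0525), Hspb8 without array 11 (0.051), Cryab without any 1 of the 6 arrays (0.0746 to 0.147) and Atg12 without array 11 or 12 (0.0691 and 0.0579). Those of Hspa1b, Dnajb1, Dnajb4, Hsph1, Bag3, Zfand2a and Slc30a1 remained under each of the 6 removals.

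Promoter sequences were set beside these rises, because HSF1 and AP-1 read short motifs near the start of a gene. The RefSeq promoter table (GRCm38.p6) held 250 bases before the start for 81 of the 103 genes called higher, 74 of the 90 called lower and 8912 of the 10916 tested. The paired heat shock repeats GAANNTTC and TTCNNGAA each read the same on both strands and overlap within a longer element. One or the other was found in 16 of 81 promoters of genes called higher (19.8%), in 8 of 74 of genes called lower (10.8%) and in 1063 of 8912 of all genes tested (11.9%). With 50 bases after the start included, these became 19 of 81 (23.5%), 9 of 74 (12.2%) and 1220 of 8912 (13.7%). Among the heat shock genes above, Hspb8 and Bag3 had a paired repeat only in this longer window. The longer canonical heat shock element of 3 inverted repeats, on either strand, was in 0 promoters of called genes and in 0.426% of those tested, though with 50 bases after the start included it was in 1 of those called higher, Hsph1. These matches are descriptions of letters and not of bound sites. Of the 8 chaperone genes called higher in the Hsp70, J-domain and small heat shock protein lists, 5 had a paired repeat within 250 bases. These and Zfand2a are shown 5′ to 3′ along the gene, with the repeat in capitals:
Hspa1b: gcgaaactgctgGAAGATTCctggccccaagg
Dnaja4: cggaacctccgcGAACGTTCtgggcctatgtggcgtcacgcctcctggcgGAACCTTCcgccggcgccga
Hspb1: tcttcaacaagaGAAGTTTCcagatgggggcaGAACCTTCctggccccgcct
Dnajb4: gttcgttcgctgTTCTAGAAagtaca
Hsph1: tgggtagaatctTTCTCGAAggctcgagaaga
Zfand2a: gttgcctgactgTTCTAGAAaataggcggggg
The stretch of Hspa1b is chr17:34959323-34959354, minus strand, that of Dnaja4 chr9:54699457-54699526, plus strand, and that of Hspb1 chr5:135887790-135887841, plus strand. The stretch of Dnajb4 is chr3:152193846-152193871, minus strand, that of Hsph1 chr5:149636350-149636381, minus strand, and that of Zfand2a chr5:139484668-139484699, minus strand. The repeat of Hspa1b begins 104 bases before the annotated start, that of Dnajb4 14 bases and that of Zfand2a 196 bases, while Hsph1 has 2 annotated starts, 33 and 54 bases away. Dnaja4 and Hspb1 carry 2 repeats each.

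The AP-1 motif TGACTCA, or TGAGTCA on the other strand, was found in 10 of 81 promoters of genes called higher (12.3%), 3 of 74 of genes called lower (4.05%) and 363 of 8912 of genes tested (4.07%). It was present in the promoters of Sprr1a, Mmp13, Lor and Bag3, shown because the first 3 are not chaperone genes and Bag3 had no paired heat shock repeat in the same window:
Sprr1a: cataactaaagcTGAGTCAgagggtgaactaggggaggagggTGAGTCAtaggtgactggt
Mmp13: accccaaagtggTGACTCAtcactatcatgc
Lor: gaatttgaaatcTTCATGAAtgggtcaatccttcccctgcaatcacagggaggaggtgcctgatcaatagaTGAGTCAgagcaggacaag
Bag3: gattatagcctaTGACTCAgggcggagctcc
Sprr1a has 2 motifs in chr3:92485979-92486039, minus strand, and Mmp13 has 1 in chr9:7272467-7272497, plus strand. Lor has 1 AP-1 motif and 1 paired heat shock repeat in chr3:92083172-92083261, minus strand, and the motif of Bag3, in chr7:128523551-128523581, plus strand, lies 20 bases before the start.

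AP-1 is a dimer of Fos, Jun, Maf and related proteins. Of 11 tested genes of the family 4 were called, all higher, with a list median of 0.66. Fos stood at 1276, 551 and 505 after preshock and at 65.2, 139 and 122 without it. Array 5 was the highest and its partner, array 6, the lowest, so the pair changes were 4.29, 1.99 and 2.05, and the change of the groups was 2.78 ± 0.45 (adjusted p = 0.0249). Fosb, at 691, 360.1 and 312 against 40.8, 75.5 and 57.6, showed the same order of arrays (2.92 ± 0.32, adjusted p = 0.00633). Junb stood at 2114, 1332 and 1433 against 453, 301 and 376, with nearly equal changes of 2.22, 2.15 and 1.93 in the 3 pairs (2.10 ± 0.27, adjusted p = 0.0104). Maff, a small Maf protein, rose by 1.54 ± 0.20 (adjusted p = 0.0104). Jun itself was not called (-0.05 ± 0.25). It read 4422, 2878 and 2258 against 2732, 3612 and 3247, higher in the pair 5 and 6 and lower in the other pairs. Jund and Mafk were called as higher with the block alone.

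EGR, KLF, IER and NR4A genes are transcription factors and regulators that respond within an hour of many stimuli. Of 27 tested, 6 were called higher and 2 lower, with a median of 0.47 and 15 genes whose preshocked arrays all lay above the unheated ones (5.63% of all genes tested). Egr1 went from 1504, 1259.9 and 1300.4 to 18147, 7448 and 5619, with array 5 more than the other preshocked arrays (2.76 ± 0.38, adjusted p = 0.013). Nr4a2, an orphan nuclear receptor, went from 111, 193 and 193 to 487, 740.4 and 689 (1.97 ± 0.28, adjusted p = 0.0148), and in this gene array 5 was the lowest of the preshocked arrays. Klf6 and Klf5 rose by 1.63 ± 0.28 and 1.10 ± 0.20, and Ier3 by 0.69 ± 0.13, on levels that reached 8590.1, 8138 and 8414 after preshock (adjusted p = 0.03, 0.0358 and 0.0355). For Klf5, 1 of 3 probe sets had the opposite sign. Klf2, a regulator of quiescence and vascular genes, went the other way, from 431, 560.4 and 708 to 227, 235 and 227, values that are almost equal in the preshocked arrays (-1.27 ± 0.19, adjusted p = 0.0176). Egr2 read 676, 182 and 218 against 134, 59.4 and 34.4 and was called with the block alone (2.20 ± 0.58, adjusted p = 0.122, and 0.0176 with it), as were Nab2, a corepressor of EGR proteins, Ier5 and Zfp36l1.

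Of the feedback inhibitors of MAP kinase signalling 5 of 19 were called, all higher, and the list median of 0.71 stood against -0.04 for all genes. Of the 5, 4 are dual-specificity phosphatases, which remove phosphate from MAP kinases. Dusp5, a nuclear ERK phosphatase, stood at 3457, 2639 and 2419.6 against 745, 941 and 908 (1.70 ± 0.25, adjusted p = 0.0164). Dusp4 stood at 1406, 1545 and 1597 against 419.8, 598 and 562 (1.54 ± 0.16, adjusted p = 0.00413). Both had groups that did not overlap. Dusp1, which acts on p38 and JNK, rose by 1.17 ± 0.21, Dusp14 by 0.74 ± 0.14 and Errfi1, an inhibitor of EGF receptor signalling, by 0.71 ± 0.14 (adjusted p = 0.033, 0.0464 and 0.0462). Errfi1 had a change of -0.00 in the rescue-labelled arrays, though the difference of the responses was not called. With the block Dusp6, Dusp16 and Spry4 were called as higher too. The p38 and JNK kinase genes themselves had 0 of 17 members called by limma with the block or without it, and 0 at an unadjusted p under 0.05 (median -0.08).

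The integrated stress response lowers translation through phosphorylation of eIF2 alpha and works through ATF4. Of 25 tested genes 2 were called, both higher. Atf3 read 4748, 2448 and 2768 after preshock against 77.9, 122 and 144, with array 5 the highest and array 6 the lowest (4.84 ± 0.33, adjusted p = 0.000469). Ppp1r15a, the stress-induced subunit of the eIF2 alpha phosphatase, read 1858, 1239 and 1312 against 485, 332 and 493 (1.75 ± 0.22, adjusted p = 0.0104). Atf4 was below its partner in each pair, by -0.47, -0.55 and -0.56 log2, and was called as lower with the block alone (-0.53 ± 0.15, adjusted p = 0.142, and 0.0261 with it). Ddit3, which encodes CHOP, read 1141, 604 and 695 against 740.4, 538 and 707, with overlapping groups (0.26 ± 0.26, not called). Trib3, Cebpb and Ppp1r15b were called as higher with the block alone, at 0.996, 0.61 and 0.40.

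Among the immediate early, MAP kinase feedback and stress response genes above, these calls ended without 1 array (adjusted p in brackets): Fos without array 6, 11, 12 or 14 (0.0626 to 0.0732), Junb without array 12 (0.0525), Maff without array 11 (0.051), Egr1 without array 11, 12 or 14 (0.0531 to 0.0603), Nr4a2 without array 11 or 13 (0.0731 and 0.0566), Klf6 without array 6, 11, 12 or 14 (0.0782 to 0.111), Klf5 without any 1 of the 6 arrays (0.0583 to 0.132), Ier3 without array 5, 11, 12, 13 or 14 (0.086 to 0.139), Klf2 without array 11, 12 or 13 (0.0588 to 0.0734), Dusp5 without array 6, 11, 12 or 14 (0.0507 to 0.0691), Dusp1 without array 5, 11, 12, 13 or 14 (0.0514 to 0.129), Dusp14 without any 1 of the 6 arrays (0.0852 to 0.155) and Errfi1 without any 1 of the 6 arrays (0.0961 to 0.14).

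**Figure D2:**
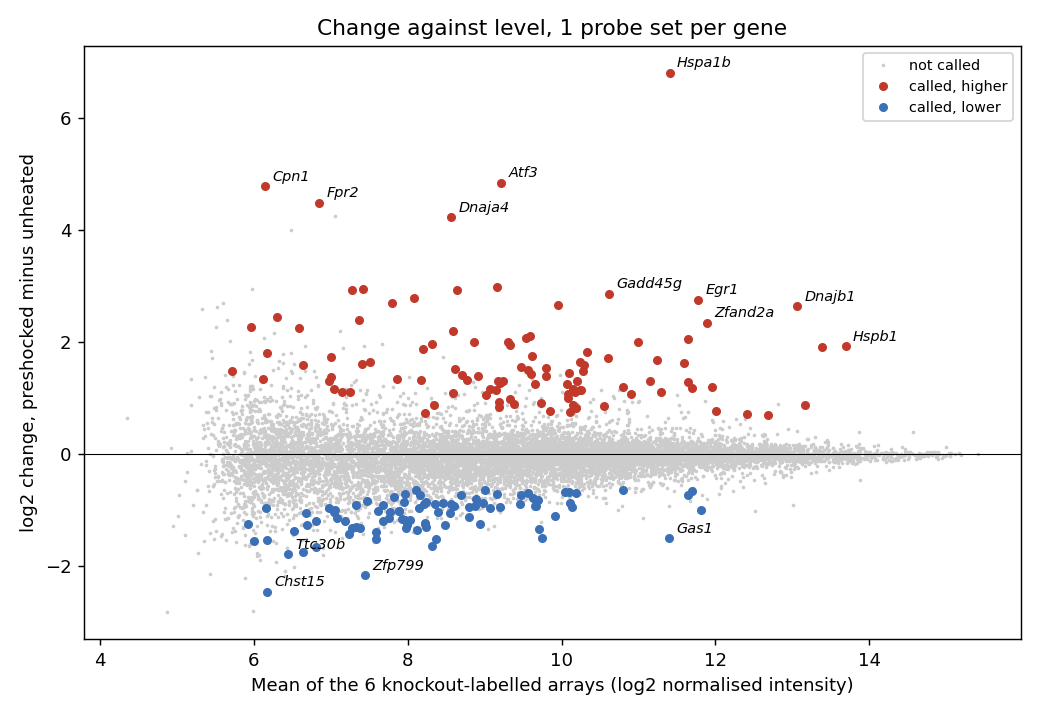
log2 change (preshocked minus unheated) against the mean log2 normalised intensity over the 6 knockout-labelled arrays, 1 point for each of 10916 genes, with the 103 genes called higher in red and the 90 called lower in blue. The rises reach up to 6.81 and occur at all levels, whereas the falls reach down to -2.46 and lie mostly at low and middle levels.

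p53 targets and growth arrest genes had 4 of 19 tested members called, all higher (median 0.31). Gadd45g, which binds cyclin-dependent kinase and stress kinase complexes, stood at 8107, 3074 and 3062 against 552, 564 and 640.3, with array 5 well above the other preshocked arrays (2.86 ± 0.35, adjusted p = 0.00916). Ccng2, a cyclin of arrested cells, stood at 3471, 4589 and 4248 against 761, 1141 and 1207 (2.00 ± 0.20, adjusted p = 0.00403). Cdkn1a, the kinase inhibitor p21, and Mdm2, the ubiquitin ligase of p53, rose by 1.48 ± 0.20 and 1.14 ± 0.20 (adjusted p = 0.0124 and 0.033). Gadd45b and Plk3 were called as higher with the block alone. Among 23 genes of the Bcl2 family and other death regulators, Dedd2, a death effector domain gene, went from 50.6, 74.2 and 99.9 to 384, 391 and 364 (2.40 ± 0.24, adjusted p = 0.00413). Cflar, an inhibitor of caspase-8, rose by 0.99 ± 0.17, and Bid, a promoter of mitochondrial apoptosis, fell by 1.11 ± 0.21, from 1157, 1545 and 1608 to 525, 609 and 887 (adjusted p = 0.028 and 0.0432). With the block Bcl2l11, which encodes the death promoter Bim, was called as higher and Bcl2 as lower. G2 and M phase genes had 0 of 24 called by limma (3 reached an unadjusted p under 0.05, all higher), and Aurka, Prc1 and Nusap1 were called as higher with the block alone, at changes of 0.45, 0.46 and 0.39. The G1 to S and replication genes had 0 of 28 called by limma (1 lower at an unadjusted p under 0.05), and the block called Ccne1 as lower.

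Growth factor and vascular ligand genes had 3 of 23 called, all higher (median 0.32). Pgf, placental growth factor, stood at 1162, 1094 and 1055 after preshock, within a narrow range, and at 93.7, 159.9 and 201 without it (2.93 ± 0.27, adjusted p = 0.00316). Vegfa and Hbegf, ligands of the VEGF and EGF receptors, rose by 1.44 ± 0.20 and 1.19 ± 0.16 (adjusted p = 0.0139 and 0.0124). With the block Bdnf and Ereg were called as higher and Fgf7 and the receptor gene Nrp2 as lower. Socs3, a feedback inhibitor of cytokine receptors, was the called member of 24 NF-kB and cytokine feedback genes, at 1620.4, 1387 and 1338 against 546, 567 and 542 (1.39 ± 0.16, adjusted p = 0.00827). Nfkbia, the NF-kB inhibitor, stood at -0.26 ± 0.19, not called. Of 9 interferon-stimulated genes 0 were called by limma with the block or without it (1 lower at an unadjusted p under 0.05).

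In TGF-beta and BMP signalling 1 of 30 genes was called. Smad7, the inhibitory Smad, went from 779, 697 and 585 to 3763, 2123 and 1763 (1.82 ± 0.28, adjusted p = 0.0212). The BMP targets Id1 and Id3 stood at -0.15 ± 0.23 and -0.17 ± 0.16, not called, higher in the pair 5 and 6 and lower in the other pairs. With the block Bambi, a decoy receptor, and Tgfbr1 were called as higher, and Grem1, a BMP antagonist, and Ccn2 as lower. Wnt signalling had 0 of 21 called by limma (6 lower at an unadjusted p under 0.05), with 16 below 0 and a median of -0.26. The block called Fzd2, Axin1 and Znrf3 as lower. It called the receptor gene Fzd7 as higher (0.38), but the other probe set of Fzd7 read -1.19 and no direction is drawn. In Notch signalling Numb, a Notch inhibitor, was called among 16 genes (0.91 ± 0.13, adjusted p = 0.013), and the ligand Jag1 and target Hey1 were called as higher with the block alone. Among 30 lineage transcription factors Sox9, known for cartilage, went from 234, 334 and 399 to 1186, 1317 and 1289 (2.00 ± 0.26, adjusted p = 0.0104). All 3 preshocked arrays were close to each other. The circadian clock list had 1 of 19 called, the repressor Bhlhe40 (1.25 ± 0.23, adjusted p = 0.0365). With the block Nr1d1 and Ciart were called as higher and Per2 as lower, and Per1 stood at 0.34 ± 0.20.

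Genes known from other tissues, such as epidermis, myeloid cells and liver, were also among the rises. A list of 15 such genes was drawn up with earlier results of these data known. Of these, 13 had a probe set, 6 passed the filter on low means and were tested, and 4 were called. The filter used means over all 10 arrays, heated ones included. Cpn1 and Fpr2, with unheated means under its minimum, passed it through the arrays where they were high. The share called was thus set in part by the filter and is no result about the list. Cpn1, a carboxypeptidase subunit known from liver, read 315, 384 and 428 after preshock and 11.6, 11.9 and 18.1 without it (4.78 ± 0.20, adjusted p = 5.43e-05). Sprr1a, a cornified envelope protein, read 582, 387 and 476 against 103, 49.7 and 45.9 (2.95 ± 0.37, adjusted p = 0.00992). Fpr2, a formyl peptide receptor, read 273, 730.5 and 823 against 72.2, 30.8 and 6.56, with array 5 lowest of the preshocked and array 14 lowest of the unheated values (4.49 ± 0.83, adjusted p = 0.0367). The block ended its call (adjusted p = 0.0644). Lor, which encodes loricrin, read 2265, 1550.4 and 1184 against 535, 105 and 152 on its brightest probe set (2.98 ± 0.54, adjusted p = 0.0355), while its other probe sets gave 6.72 and -0.13. Of the 103 genes called higher, 8 had an unheated mean under the minimum mean of the tested genes (5.65 log2), Cpn1, Fpr2 and Mmp13 among them, and the sizes of those changes are uncertain. In the extracellular matrix list the collagenase gene Mmp13 was the called gene of 25 (1.80 ± 0.20, adjusted p = 0.00679), at 124, 127 and 154 against 30.3, 38.1 and 49.5.

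Defining markers of other cell types were set beside these rises. Of 12 epithelial markers with a probe set 0 had a mean above 500, and their summed intensity was 376 to 1192 in preshocked and 442 to 1324 in unheated arrays. Of 13 macrophage and leukocyte markers 1 had a mean above 500, with sums of 1019 to 1503 and 1064 to 1854. Their part in the result was not tested. The 15 fibroblast markers summed to 98667 to 108082 in preshocked and 102673 to 115385 in unheated arrays, and 10 of them had a mean above 500, with Vim between 33122 and 36785. Thy1, Lum and Fap were low, each under 100 in all 6 arrays. Sums of 10 endothelial, 5 adipocyte and 9 neural markers overlapped between the groups, and 2 of the neural markers, Nes and Ncam1, had a mean above 500. The sums of 10 muscle markers overlapped narrowly (5190 to 6395 in preshocked and 4653 to 5194 in unheated arrays). Tnnt2 was the 1 muscle marker above 500, at 4666, 5394 and 6022 against 3990, 4337 and 4797. The sum of 6 cartilage and bone markers was higher in preshocked arrays (1515 to 1633, against 531 to 597). Most of the preshocked sum was the called gene Sox9, the 1 member above 500 (1186, 1317 and 1289 against 234, 334 and 399). Of the others, Acan, Col2a1 and Sp7 were above 0 (0.78, 0.86 and 0.54 log2). Ibsp and Alpl were below 0 (-0.09 and -1.12), so no rise of the list is drawn. In bulk RNA, fewer cells of a type and less RNA per cell cannot be told apart.

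For the genes of the growth, signalling and lineage lists above, these calls ended without 1 array (adjusted p in brackets): Cdkn1a without array 11 (0.0569), Mdm2 without array 5, 6, 11, 12 or 14 (0.0761 to 0.129), Cflar without array 6, 11, 12, 13 or 14 (0.0614 to 0.102), Bid without array 5, 6, 11, 12 or 14 (0.0507 to 0.164), Vegfa without array 11, 12 or 14 (0.053 to 0.0724), Hbegf without array 12 (0.0579), Smad7 without array 11, 12 or 14 (0.0724 to 0.0812), Numb without array 11, 12 or 13 (0.0527 to 0.0724), Sox9 without array 11 (0.0561), Bhlhe40 without any 1 of the 6 arrays (0.0534 to 0.136), Fpr2 without array 11, 12, 13 or 14 (0.0588 to 0.143) and Lor without array 5, 11, 12, 13 or 14 (0.0746 to 0.129).

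**Figure D3:**
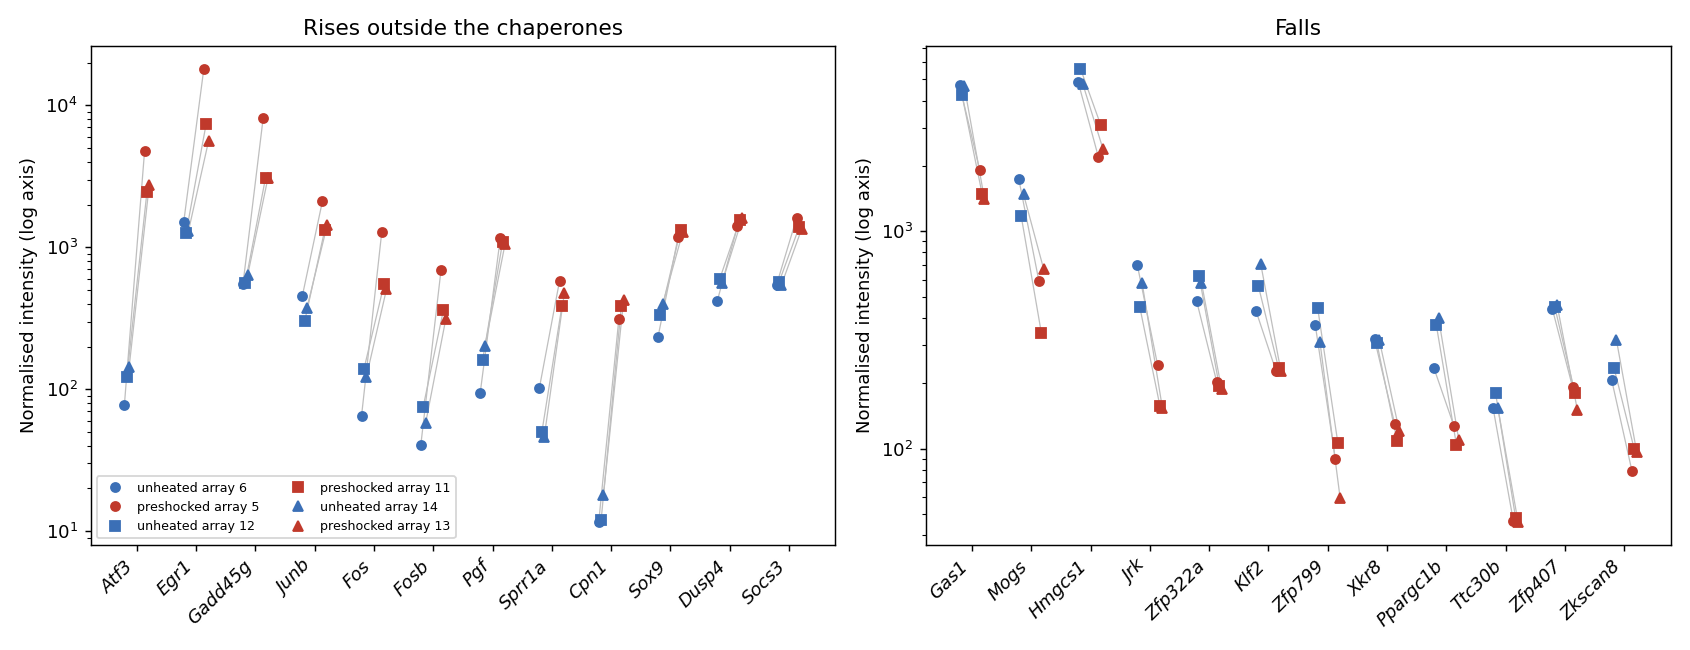
Normalised intensity (log axis, no absolute unit) of 12 genes that rose (left) and 12 that fell (right) in the 3 preshocked (red) and 3 unheated (blue) knockout-labelled arrays, with grey lines joining arrays of adjoining title number. In Atf3, Fos, Egr1 and Gadd45g the circle of array 5 stands above the other preshocked arrays, and Sox9, Dusp4, Socs3 and most falls show arrays close together.

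The falls were smaller than the rises: 26 genes rose at least 4-fold and 2 fell that far, while 86 rose and 48 fell at least 2-fold. Zinc finger genes were numerous among them. Proteins with C2H2 zinc fingers, many with a KRAB domain, bind DNA and often silence transcription. Of 247 tested genes whose symbol is Zfp with a number, 9 were called, all lower, against 0.824% of all genes. Their median change was -0.26, and 180 lay below 0 and 67 above. With the deposited scaling 191 lay below 0, and with median-centred arrays 180. In 119 of the 247 the change was negative in all 3 pairs, against 3352 of the 10916 genes tested (30.7%). With the block 46 of the 247 were called lower and 10 higher, against 5.82% and 3.33% of all genes tested.

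Zfp799 read 89.2, 107 and 59.0 after preshock and 370.3, 444 and 308 without it (-2.17 ± 0.28, adjusted p = 0.0104), the largest fall among the numbered Zfp genes that were called. Zfp322a read 202, 195 and 188 against 476, 623 and 581, 3 nearly equal preshocked values (-1.52 ± 0.21, adjusted p = 0.0135). Zfp407 read 192, 180.1 and 151 against 438, 448 and 456 (-1.37 ± 0.16, adjusted p = 0.00827). In these genes the groups did not overlap. Zfp839, Zfp324 and Zfp229 fell by 1.76 ± 0.28, 1.53 ± 0.23 and 1.38 ± 0.22 (adjusted p = 0.0228, 0.0191 and 0.0228). Zkscan8, a related gene outside the count, fell by 1.44 ± 0.18 (adjusted p = 0.0104), with 1 of 3 probe sets of opposite sign, and Jrk, a DNA-binding nuclear protein, went from 697, 449 and 577 to 243, 157 and 155 (-1.65 ± 0.23, adjusted p = 0.0124).

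The Zfp genes were mostly dim, and the share below 0 was higher among the dimmer ones. With all genes split into 4 equal bins by their mean over the 6 arrays, in the lowest bin 96 of 112 Zfp genes were below 0 (85.7%, median -0.42), against 59.1% and a median of -0.11 for all 2729 genes there. In the second bin the share was 70.8% of 89, against 61% of all. In the third it was 50% of 36 and in the highest 30% of 10, against 56.9% and 56.6%. These shares are descriptions of the members and not a test.

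Primary cilium genes had 2 of 31 called, both lower. Ttc30b, a component of intraflagellar transport, read 46.6, 47.8 and 46.0 against 153, 181 and 154, with both groups tight (-1.79 ± 0.12, adjusted p = 0.000469). Bbs10, a chaperonin-like gene of Bardet-Biedl syndrome, read 60.7, 28.5 and 30.1 against 107, 113 and 109 (-1.55 ± 0.31, adjusted p = 0.0498). The preshocked means of both, and of Zfp324 and Chst15, were under the same minimum, and the sizes are uncertain. With the block Bbs12 was called as lower and Iqcb1 as higher. Gas1, a membrane protein known from growth arrest and hedgehog signalling, was brighter: it read 1922, 1493 and 1411 after preshock and 4698, 4261 and 4659 without it (-1.51 ± 0.26, adjusted p = 0.0294). Xkr8, a lipid scramblase of the plasma membrane, read 129.7, 109 and 119.9 against 319, 305 and 315 (-1.39 ± 0.13, adjusted p = 0.00358), and its pairs gave -1.30, -1.49 and -1.39.

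Genes of lipids, glycans and organelles gave single calls. Cholesterol synthesis and uptake had 1 of 23 called, and 17 lay below 0 (median -0.19). Hmgcs1, which makes HMG-CoA, went from 4875, 5612 and 4761 to 2209.8, 3093 and 2392, about the same fall in each pair (-0.998 ± 0.17, adjusted p = 0.03). With the block Sqle, Stard4 and Insig1 were called as lower too. Among 28 glycan sulfotransferase and chain enzyme genes, 22 lay below 0 (median -0.23) and 1 was called each way. Chst15, which sulfates chondroitin, read 20.1, 47.7 and 30.3 against 224, 92.8 and 235 (-2.46 ± 0.45, adjusted p = 0.0365), and the block ended the call (adjusted p = 0.0589). Its pair 11 and 12 differed by much less than the others (-3.48, -0.96 and -2.95). Chst11, also a chondroitin sulfotransferase, rose by 1.10 ± 0.19 (adjusted p = 0.03). With the block 6 genes of this list were lower and 2 higher, Has2, a hyaluronan synthase, being the other of the 2. Mogs, the first glucosidase of N-glycan trimming, fell from 1737, 1175 and 1479 to 588, 341 and 669 (-1.497 ± 0.27, adjusted p = 0.0327).

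Of 13 peroxisome biogenesis genes 10 lay below 0 (median -0.30), and Pex26, a membrane anchor of the import machinery, was called (-1.01 ± 0.16, adjusted p = 0.0212). Ppargc1b, a coactivator of mitochondrial biogenesis, went from 235, 373 and 397 to 127, 104 and 109.8 (-1.53 ± 0.23, adjusted p = 0.0177), and the related Pprc1 was called as lower with the block alone. Abcc10, an ABC exporter, fell by 1.66 ± 0.25 (adjusted p = 0.0177). In the transcription machinery, Tada1 of the SAGA complex was the called gene of 40 TAF, Mediator and SAGA genes (-0.87 ± 0.13, adjusted p = 0.0182), with Tada2a and Med22 called as lower by the block. Ccnt1, a cyclin of the elongation factor P-TEFb, was the called gene of 32 chromatin and elongation genes and rose by 0.87 ± 0.16 (adjusted p = 0.0365). Hexim1, an inhibitor of P-TEFb, read 553, 549 and 531 against 872, 845 and 914 and was called as lower with the block alone (-0.69 ± 0.14, adjusted p = 0.0582, and 0.0463 with it).

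Among splicing regulators, the kinase gene Clk2 fell by 0.79 ± 0.14 and Rsrp1 rose by 1.08 ± 0.18 (adjusted p = 0.0355 and 0.0276) in a list of 20. Clk1 was called as higher with the block alone, with pair changes of 1.06, 0.81 and 0.91, and the splicing factor genes Srsf4 and Srsf5 as lower. Cirbp, the cold-inducible RNA binder, stood at -0.34 ± 0.31, not called. In the actin, SRF and YAP list Mrtfb, an SRF coactivator, was the called gene of 25 (-0.83 ± 0.14, adjusted p = 0.028), and the block called Mrtfa and the YAP targets Ccn1 and Ccn2 as lower. Tada1 and Mrtfb each had 1 probe set of opposite sign. Actb stood at -0.05 ± 0.15 and Ccnd1 at -0.07 ± 0.14.

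Among the genes that fell and those named beside them, these calls ended without 1 array (adjusted p in brackets): Zfp799 without array 12 (0.0525), Zfp322a without array 11, 12, 13 or 14 (0.0527 to 0.0691), Zfp839 without array 6, 11, 12 or 13 (0.0683 to 0.0969), Zfp324 without array 11, 12 or 14 (0.073 to 0.0756), Zfp229 without array 6, 11, 12 or 14 (0.0569 to 0.0967), Jrk without array 11 or 14 (0.0687 and 0.052), Bbs10 without array 6, 11, 12, 13 or 14 (0.113 to 0.178), Gas1 without array 6, 11, 12, 13 or 14 (0.079 to 0.123), Hmgcs1 without any 1 of the 6 arrays (0.051 to 0.12), Chst15 without array 5, 6, 11, 13 or 14 (0.0723 to 0.129), Chst11 without any 1 of the 6 arrays (0.0506 to 0.123), Mogs without array 5, 6, 11, 12 or 14 (0.0564 to 0.111), Pex26 without array 6, 11, 13 or 14 (0.0617 to 0.0969), Ppargc1b without array 11, 12, 13 or 14 (0.06 to 0.0787), Abcc10 without array 6, 11, 13 or 14 (0.0514 to 0.076), Tada1 without array 11, 12, 13 or 14 (0.06 to 0.0781), Ccnt1 without any 1 of the 6 arrays (0.0556 to 0.149), Clk2 without any 1 of the 6 arrays (0.0507 to 0.14), Rsrp1 without any 1 of the 6 arrays (0.0606 to 0.0911) and Mrtfb without array 6, 11, 12, 13 or 14 (0.0766 to 0.121).

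**Figure D4:**
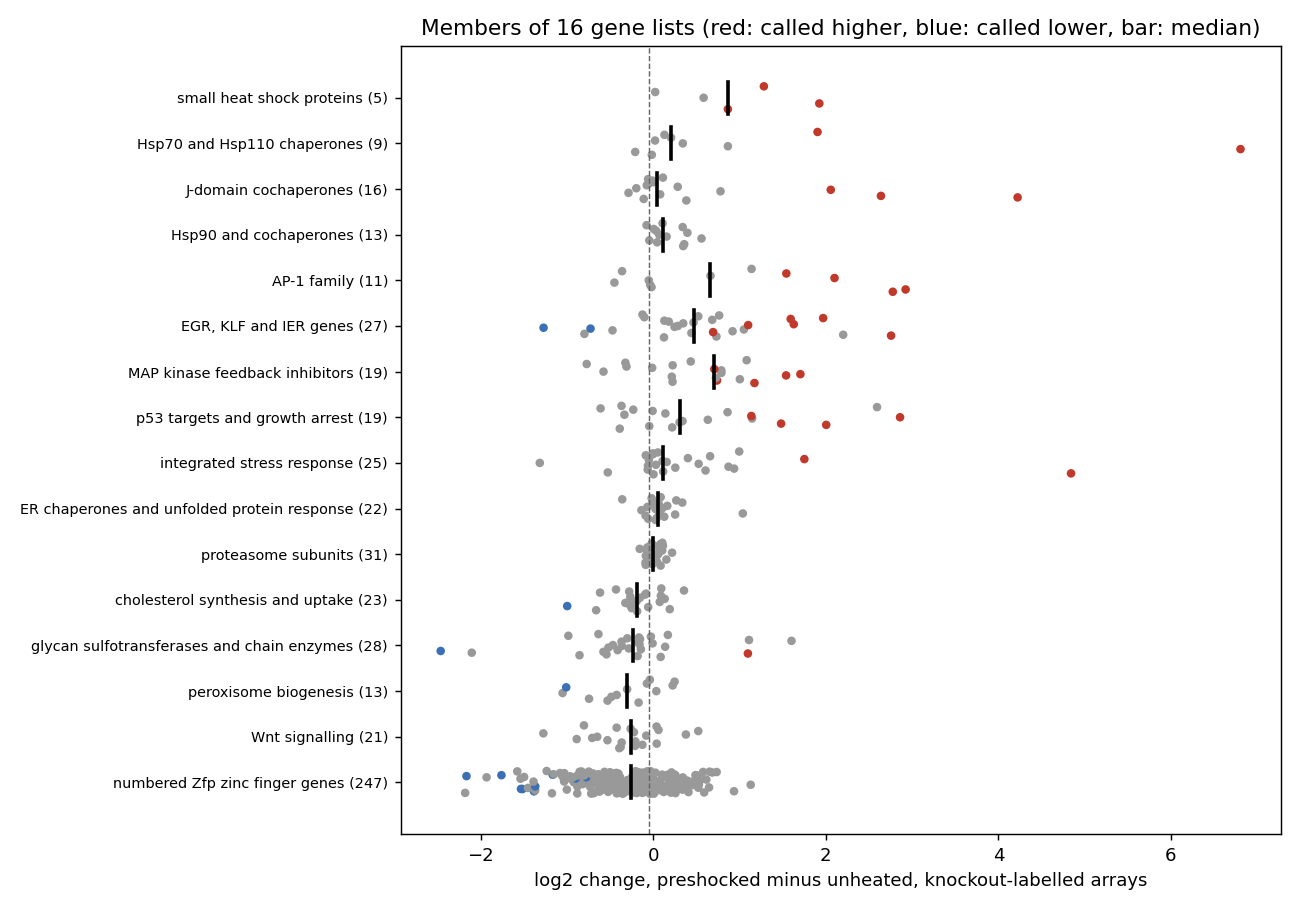
log2 change of each tested member of 16 gene lists in the knockout-labelled arrays, with the number of members in brackets, called members in red (higher) or blue (lower), list medians as black bars and the median of all genes as a dashed line. Small heat shock proteins, MAP kinase feedback inhibitors and the AP-1 family have medians above 0.6, proteasome subunits lie between -0.16 and 0.22, and the numbered Zfp genes spread mostly below 0.

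The 3 pairs gave the response with different sizes. All 193 called genes changed in the same direction in every pair. The median change of the genes called higher was 1.65 in the pair 5 and 6, 1.39 in 11 and 12, and 1.30 in 13 and 14, and that of the genes called lower was -0.98, -1.07 and -1.03. Over all tested genes the pair changes correlated with r = 0.474, 0.396 and 0.464, as a description across genes, which are not independent replicates. Genes above 1 log2 in all 3 pairs numbered 86, and those below -1 numbered 50. Genes above 2 in all 3 pairs numbered 17, and 1 was below -2. Of 99 named genes called with the block alone, 18 had at least 1 probe set of opposite sign, among them Hsp90aa1, Sel1l, Atf4, Jund, Bcl2, Nfe2l2, Nrp2, Per2, Tgfbr1 and Fzd7. Of the 193 calls, 35 remained in each removal of 1 array, 30 of them higher and 5 lower (Ttc30b, Xkr8, Zfp407, Zkscan8 and Trim65). Trim65 was named after its value was seen.

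The arrays of the pair 5 and 6 stood apart from the rest. Their deposited median intensities were 100.4 and 107.0, against 54.9 to 73.7 in the other 4, and the first principal component of the 6 arrays (48.7% of the variance) separated them, while the second (25.4%) separated preshocked from unheated arrays. Array medians and 3′ to 5′ ratios of Gapdh, beta-actin and the transferrin receptor did not set the groups apart (exact two-sided permutation p = 0.8, 1, 1 and 1, where 3 against 3 arrays allow no p below 0.1). Without the whole pair 112 genes were called.

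The same heat treatment in the rescue-labelled line (2 preshocked and 2 unheated arrays) gave 39 called genes (0.357%). The difference of the responses, rescue minus knockout-labelled, was called by limma for 0 of 10916 genes, with 103 at an unadjusted p under 0.05 (0.944%), and for 0 with the pair block. Without the block the smallest adjusted p was 1. Of the 103 genes called higher in the knockout-labelled arrays, 102 were above 0 in the rescue-labelled arrays, and all 90 called lower were below 0 there. Their median changes were 1.42 and 1.30 for the genes called higher and -1.03 and -0.81 for those called lower, in the knockout-labelled and the rescue-labelled arrays. The genes were chosen on the first of each pair of values, so the sizes are a description. Hspa1b changed by 5.60 in the rescue-labelled arrays, Atf3 by 4.98, Cpn1 by 4.74, Sprr1a by 4.07 and Fos by 1.15. A p that misses the threshold does not show that the lines responded alike, and with 3 and 2 arrays a group the number of arrays limits the precision.

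**Figure D5:**
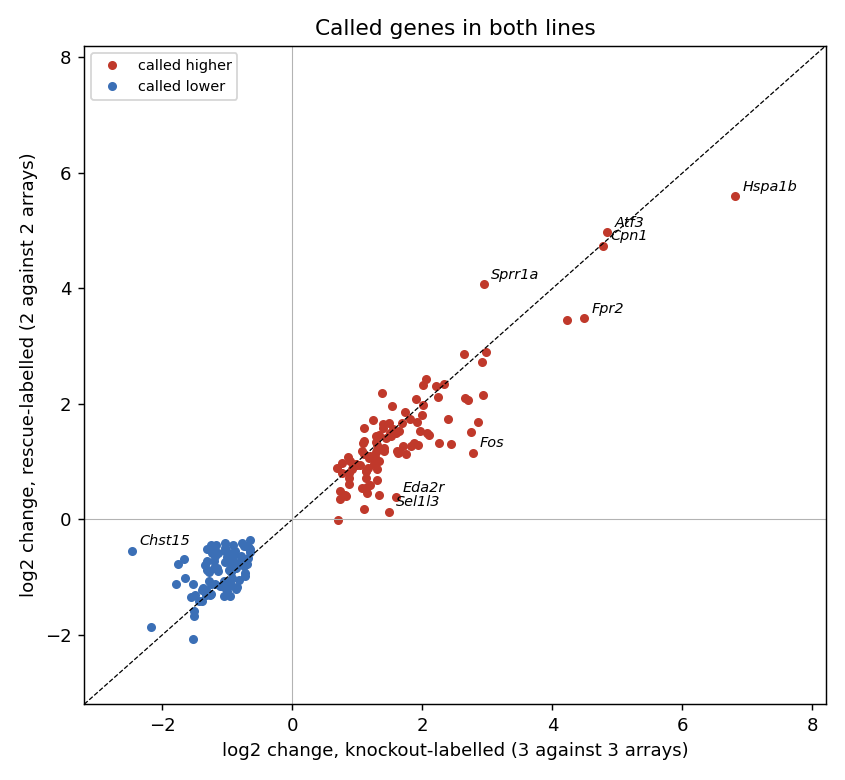
log2 change of the 193 called genes in the knockout-labelled arrays (x axis, 3 against 3 arrays) and in the rescue-labelled arrays (y axis, 2 against 2 arrays), with a dashed line where both are equal. All but 1 of the genes called higher are above 0 in both lines and all called lower are below 0 in both, and Hspa1b, Atf3 and Cpn1 are far out in both lines.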

How the data were processed

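The authors deposited 1 table of intensity values, per the labels from Affymetrix mouse arrays, with 45101 probe sets and 10 arrays. Which software summarised the probes is not stated in the labels or the table. The 2% trimmed mean of each array lay between 500.003 and 500.004, so the deposited values carry a common scaling. Array medians still differed by up to 1.08 log2. Values below 1 (4935, of which 1772 in the knockout-labelled arrays) were set to 1, and the log2 values were quantile normalised over 10 arrays. The 64 control probe sets were left out. Gene symbols came from the platform annotation (34945 probe sets with 1 symbol, 932 with several, 9160 with none). Each of 18193 genes took its probe set with the highest mean, and the 60% with the highest means (10916) were tested.

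limma 3.58.1 (R 4.3.3) fitted 4 group means over 10 arrays, with 6 residual degrees of freedom. The pair block left 3. Deviations from the group means correlated between adjoining title numbers with r = 0.721, 0.376 and 0.552, each array's best partner, and this was the reason to print block results. The block is beside a result where it changes the call. Promoters were searched with Python 3.11.15.

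Genes were named by a rule: the 15 strongest rises and 15 strongest falls among called genes whose groups do not overlap, up to 6 called members and 4 further block-called members of each list, and preset anchors. Some genes that the rule chose are not described above. Among them are Rnf225 and Swt1, called higher in each removal of 1 array, and Cdc42ep1 and Zfp697, called lower. The comparison and the lists were chosen with earlier results of these data known. The alternatives covered scaling, filter, floor, probe set choice, arrays used, variance model, block and removal of each array.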

Additional observations from a re-analysis of the deposited data

Results flagged for a closer look

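Taf9b, a subunit of the TFIID and SAGA complexes, and Myc, the growth regulator, went in opposite directions in the 2 lines. They were picked by scanning all named genes for this pattern of signs, so the pattern itself is no test. Taf9b was above its partner in the 3 knockout-labelled pairs (0.35, 1.02 and 0.84 log2) and below it in both rescue-labelled pairs (-0.30 and -0.33), a difference, rescue minus knockout-labelled, of -1.06. Myc was above its partner by 0.36, 0.08 and 0.10 in the knockout-labelled pairs and below it in the rescue-labelled pairs (-0.21 and -0.20), a difference of -0.38. The limma interaction test did not call either (unadjusted p = 0.354 for Taf9b and 0.282 for Myc, adjusted p = 1 for both, over 10916 genes). Taf9b was a dim gene, at 118, 31.1 and 44.9 in the preshocked and 92.7, 15.3 and 25.03 in the unheated arrays.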

How the results depend on the processing

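Of 193 calls in the knockout-labelled arrays, the replicate block by title pairs gave 999, and with values below 32 set to 32 as well 1108. The block in the 6 knockout-labelled arrays alone gave 229, and those arrays without the block 42. Median-centred arrays gave 28, no filter on dim genes 28, the mean of all probe sets of a gene 101, and leaving out the pair 5 and 6 gave 112. Leaving out 1 array gave 42 to 139. The deposited scaling (148), the 40% filter (182), the floor of 32 (209) and the trend and robust variance (208) stayed within 1.5 times. Over all probe sets 27 were called, with 0 under the block, 172 with the floor of 32, 12 with median-centred arrays and 5 to 31 without 1 array. The difference of responses had 0 calls by limma and 1 with no filter on dim genes. The canonical heat shock element was in 0 promoters of genes called higher, and in 1 with 50 bases after the start. The causes of these moves were not tested. Of 77 named genes called in the quantile-normalised values, 0 had the other sign under an alternative. Of 99 named genes called with the block alone 4 did, Nfe2l2, Fzd7 and Socs4 with the mean of all probe sets (0.74, -0.41 and 0.18 log2) and Tnc without array 6 (-0.05), and so did 11 of 23 named genes that were not called. The combined settings with the block and the repeat TTCNNGAA were chosen after seeing the data. Signal over background was not given, and intensities near the floor limit the dim genes.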

Other observations

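Further called genes, named here after their values were seen, belong to none of the lists. Txnip, an inhibitor of thioredoxin, went from 517, 324 and 280.3 to 2651, 1155 and 1146 (unheated arrays 6, 12 and 14, then preshocked arrays 5, 11 and 13), a change of 2.07 ± 0.37 log2 (adjusted p = 0.0346). Rgs2, which turns off G protein signals, changed by 2.20 ± 0.25, and Mxd1, an antagonist of Myc, by 2.26 ± 0.42 (adjusted p = 0.00695 and 0.037). Pim1, a survival kinase, rose by 1.41 ± 0.22, and Siah2, a ubiquitin ligase, by 1.27 ± 0.12 (adjusted p = 0.0197 and 0.00346). Jarid2, a partner of the Polycomb complex, rose by 1.88 ± 0.19, L3mbtl3, a methyl-lysine reader, by 1.39 ± 0.19, Prdm2, a histone methyltransferase family member, by 1.31 ± 0.22, and Chd2, a remodeller, by 0.89 ± 0.14 (adjusted p = 0.00418, 0.0119, 0.0275 and 0.0197). These 4 were picked for their rises, and in the list of chromatin and elongation genes 1 of 32 was called (median -0.03), with 1 higher and 4 lower under the block. The noncoding gene Chaserr, which neighbours Chd2, rose by 1.42 ± 0.26 (adjusted p = 0.0365).

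Called falls outside the lists included Prmt6, an arginine methyltransferase, at -1.25 ± 0.17, Rfx5, a regulator of MHC class II genes, at -1.21 ± 0.18, and Tnfrsf1b, a TNF receptor, at -1.05 ± 0.18 (adjusted p = 0.013, 0.017 and 0.031). The genes called higher and lower were both shorter than average, with median gene lengths of 15094 and 15493 bases, against 23629 for all genes tested with a length, and both were dimmer without heat, at 8.70 and 8.67 log2 against 9.39.

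Sel1l3 and Eda2r, also named after their values were seen, had much smaller changes in the rescue-labelled arrays: 1.48 against 0.14 and 1.59 against 0.38. The difference of responses was not called for any gene.

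The unheated means of Mxd1 and Sel1l3 were under the minimum mean of the tested genes (5.65 log2), so the sizes of their changes are uncertain, and Mxd1, Prdm2 and Prmt6 each had 1 probe set of opposite sign. Of these genes outside the lists, the calls of Rgs2, Siah2 and Jarid2 remained in each removal of 1 array, and these ended (adjusted p in brackets): Txnip without array 11, 12, 13 or 14 (0.0606 to 0.128), Mxd1 without array 5, 6, 11, 13 or 14 (0.0876 to 0.132), Pim1 without array 5, 11, 12 or 13 (0.054 to 0.073), L3mbtl3 without array 11 or 12 (0.0618 and 0.0554), Prdm2 without any 1 of the 6 arrays (0.0601 to 0.11), Chd2 without array 11, 12, 13 or 14 (0.0557 to 0.0876), Chaserr without array 5, 11, 12, 13 or 14 (0.0627 to 0.129), Prmt6 without array 11 or 12 (0.0665 and 0.0525), Rfx5 without array 11, 12 or 14 (0.0568 to 0.076), Tnfrsf1b without any 1 of the 6 arrays (0.0535 to 0.129), Sel1l3 without array 5, 11, 12, 13 or 14 (0.0598 to 0.121) and Eda2r without array 5, 6, 11, 12 or 13 (0.054 to 0.154).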
